A study of Mus musculus with 6 samples.

Results

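The microglial identity and complement genes followed here were 9 genes chosen by name, namely Cx3cr1, P2ry12, Tmem119, Csf1r and Aif1, the receptor Trem2, and the C1q subunits C1qa, C1qb and C1qc. They were 9 of 37315 gene identifiers in the count tables, with reads in at least 1 library for 26277. All 9 were detected in all 6 libraries and all 9 passed the filter on low counts in every comparison. RNA came from hippocampi of C57BL/6J mice at 4 weeks of age, with 1 library for each of 6 groups in 3 experiments. In the Nestin-Cre experiment, a Prrc2a flox/flox mouse line (f/f) was compared with Prrc2a flox/flox; nestin-cre, and in the Olig2-Cre experiment f/f was compared with Prrc2a flox/flox;Olig2-cre, so that both arms of both experiments were homozygous for the floxed allele. In the Fto experiment, WT was compared with Fto Tg, which carries a lentiviral mouse Fto transgene under the ubiquitin C promoter. Nestin-Cre acts in neural progenitors and their descendants. Olig2-Cre, expressed from the Olig2 locus itself, acts in the oligodendroglial lineage. Neither driver is directed at microglia, which arise outside the neural lineage. The sample titles call the f/f libraries WT. The number of mice behind a library was not given in the sources used here. With 1 library a group, no difference within a pair had a replicate check, and all intervals below cover counting error only.

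Microglia are the resident macrophages of the brain and are maintained by signals through the receptor Csf1r, whose ligands are Csf1 and Il34. In the healthy brain they express a characteristic group of surface molecules, among them the fractalkine receptor Cx3cr1, the ADP receptor P2ry12 and the transmembrane protein Tmem119. They are also the main source of C1q in the brain, the complex of A, B and C chains that starts the classical complement pathway and takes part in tagging synapses for removal. Trem2 is a lipid-sensing receptor that signals through the adaptor Tyrobp, and Aif1, also known as Iba1, is an actin-binding protein widely used to stain microglia. In bulk tissue, fewer microglia and less of a transcript per cell cannot be told apart.

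Libraries held 18616540 to 35482589 counts, so that 3 counts corresponded to 0.0846 to 0.161 CPM (counts scaled per 1000000 counts of the library). The Nestin-Cre library stood apart from the other 5 before any gene was considered. Mitochondrial genes took 26.2% of its counts against 7.97% to 8.86% elsewhere, and the mean GC content of its counts was 45.7% against 48.5% to 49.2%. Its TMM scaling factor, an estimate of composition by edgeR, was 0.672 against 1.07 to 1.09. Prrc2a itself was at 184 CPM in the Nestin-Cre library and 434 CPM in its f/f control, and at 346 and 389 CPM with and without Olig2-Cre, where it was not called. A count over the whole gene does not test the deletion, since the floxed exons were not given. Fto was at 354 CPM in the Fto Tg library and 158 CPM in WT. Hippocampal neuron markers were present throughout, with 0 of 14 at 0 in any library.

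The C1q genes lie side by side on the minus strand of chromosome 4 (GRCm38), in the order C1qb at chr4:136880129-136886187, C1qc at chr4:136889804-136893065 and C1qa at chr4:136895917-136898803. The gaps were 3.62 kb between C1qb and C1qc and 2.85 kb between C1qc and C1qa. These genes gave near-equal read counts in 5 libraries and parted in the sixth, so bases before the start of C1qb and C1qc are shown, 5′ to 3′ on the gene's strand, from RefSeq promoters of GRCm38.p6. The RefSeq start of C1qc lies inside the GENCODE gene, and the 151 bases of its window that fall within that gene are left out. The 250 bases shown for C1qb lie at chr4:136886201-136886450 and the 99 for C1qc at chr4:136893066-136893164. Capitals mark GAGGAA or its reverse complement, the purine-rich core to which ETS-family factors such as Spi1 (PU.1) of macrophages can bind.
C1qb: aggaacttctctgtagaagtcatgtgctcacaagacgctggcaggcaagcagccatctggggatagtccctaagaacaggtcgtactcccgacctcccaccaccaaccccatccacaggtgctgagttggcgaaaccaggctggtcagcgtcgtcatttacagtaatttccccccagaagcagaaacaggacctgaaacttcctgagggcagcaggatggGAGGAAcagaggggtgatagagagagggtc
C1qc: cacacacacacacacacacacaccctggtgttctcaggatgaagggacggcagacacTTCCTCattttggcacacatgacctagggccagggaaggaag

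GAGGAA was searched on both strands in windows of 250 bases before to 50 bases after the start. It was found in 4 of the 6 members with an entry, namely C1qb, C1qc, Trem2 and Aif1 and neither P2ry12 nor Cx3cr1, against 9289 of 32851 promoters, or 28.3%. It stood at base 221 of the C1qb window and base 58 of the C1qc window, on opposite strands. A match is a description of the letters and not a binding site.

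In the 3 control libraries (both f/f and WT), levels per kb of exon spanned from 30.2 ± 1.18 CPM per kb (SD, n = 3) for C1qa to 1.71 ± 0.0616 for Trem2. C1qb stood at 28.7 ± 2.11 CPM per kb, and its range overlapped that of C1qa. C1qc at 17.3 ± 0.691, Csf1r at 15.9 ± 1.88 and P2ry12 at 14.6 ± 1.53 CPM per kb followed, and each overlapped the next. Cx3cr1 at 10.3 ± 0.630 and Tmem119 at 8.07 ± 1.42 CPM per kb also overlapped. Aif1 at 3.20 ± 0.340 CPM per kb was separated from its neighbours on both sides. Trem2 was the lowest of the 9 per kb in every library.

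The controls also set how far a member moved without a deletion or transgene, although they came from 3 experiments. The SD of log2 CPM over the controls was 0.05 for Trem2, 0.06 for C1qa and C1qc and 0.24 for Tmem119, with the other 5 in between. A read test for each pair of libraries (the MARS method of DEGseq) called genes with a fold change of at least 1.2 and a false discovery rate (FDR) below 0.001. It compares 2 libraries, not genotypes. Between the f/f libraries it called 3 members higher in that of the Olig2-Cre experiment than in the other and 0 lower, against 6.11% of 18432 genes higher and 7.01% lower. These were P2ry12 with a log2 ratio of 0.29, Tmem119 with 0.39 and Csf1r with 0.34. Between WT and the f/f control of Nestin-Cre 0 members were called, against 8.38% of genes higher and 8.92% lower in WT. Between WT and the f/f control of Olig2-Cre 0 were called higher and 1 lower, Tmem119 with a log2 ratio of -0.45, against 3.21% of genes higher and 3.99% lower. None of the C1q genes, Trem2, Cx3cr1 or Aif1 was called between controls.

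**Figure D1:**
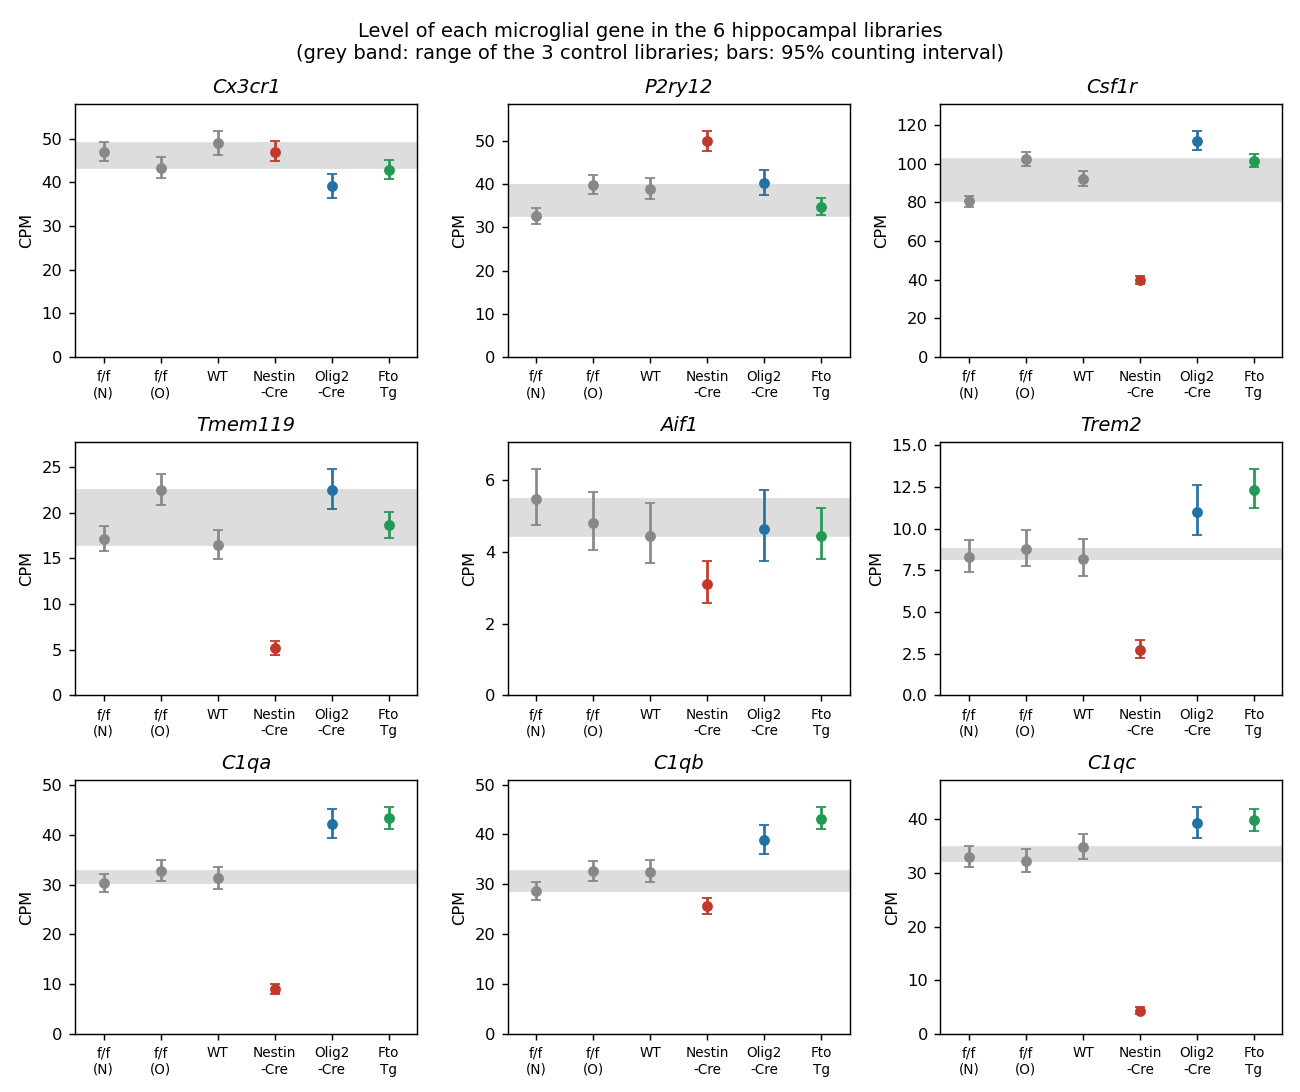
Level of each gene in CPM (vertical axes, from 0) in the 6 libraries (horizontal axes, N and O marking the f/f libraries of the Nestin-Cre and Olig2-Cre experiments). Points are single libraries, bars are 95% counting intervals and the grey band is the range of the 3 controls. The Nestin-Cre library lies below the band for 7 genes, inside it for Cx3cr1 and above it for P2ry12.

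Among the surface receptors of homeostatic microglia, the Nestin-Cre library was lower for Tmem119 and Csf1r, about equal for Cx3cr1 and higher for P2ry12. Cx3cr1 was at 47.0 CPM in both libraries of the Nestin-Cre pair, at 43.4 in f/f and 39.1 in Olig2-Cre, and at 49.0 in WT and 42.9 in Fto Tg. The Nestin-Cre value lay within the controls, whereas the Olig2-Cre and Fto Tg values were below all 3, and no pair was called. P2ry12 was at 32.6 CPM in f/f and 49.9 in Nestin-Cre, at 39.8 and 40.2 in the Olig2-Cre pair, and at 38.9 and 34.7 in the Fto pair. The Nestin-Cre library was the highest of the 6, with a log2 ratio of 0.61 (95% counting interval 0.50 to 0.72), and P2ry12 was the 1 member called higher in that pair. That call was lost in an exact test with 1 common spread of the controls for all genes, at an FDR below 0.05. The 6 lower calls held there.

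Tmem119 was at 17.1 CPM in f/f and 5.15 in Nestin-Cre, at 22.5 in both libraries of the Olig2-Cre pair, and at 16.5 in WT and 18.6 in Fto Tg. The Nestin-Cre value was 3.32-fold lower than its control and below every other library. Csf1r was at 80.5 and 39.7 CPM in the Nestin-Cre pair, at 102 and 112 in the Olig2-Cre pair, and at 92.1 and 101 in the Fto pair. Nestin-Cre was again the lowest library, with a log2 ratio of -1.02 (-1.11 to -0.93) that the read test called, and the Olig2-Cre library was the highest without a call. Of the exon bases of Csf1r, 15.1% also belong to Hmgxb3 on the other strand, and reads overlapping both genes were not counted. Aif1, the member with the fewest reads in all libraries but Nestin-Cre, was at 5.47 CPM in f/f and 3.11 in Nestin-Cre, at 4.79 and 4.62 in the Olig2-Cre pair, and at 4.44 in both libraries of the Fto pair. It was called lower in the Nestin-Cre pair only, with a log2 ratio of -0.81 (-1.15 to -0.47), and with TMM scaling it had -0.13 and was not called.

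Trem2 was at 8.31 CPM in f/f and 2.73 in Nestin-Cre, at 8.79 and 11.01 in the Olig2-Cre pair, and at 8.21 in WT and 12.4 in Fto Tg. The 3 controls lay within 0.10 of each other on the log2 scale, with Nestin-Cre below them and both other libraries above. The falls and rises came to log2 ratios of -1.60 with Nestin-Cre, 0.33 with Olig2-Cre and 0.59 with Fto Tg, of which the first and last were called. The adaptor Tyrobp was at 12.4 CPM in f/f and 3.51 in Nestin-Cre, at 10.96 and 12.03 in the Olig2-Cre pair, and at 10.95 in WT and 16.7 in Fto Tg. It too was called lower with Nestin-Cre and higher with Fto Tg, and the ratio of Trem2 to Tyrobp reads stayed between 0.671 and 0.915 over the 6 libraries.

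The C1q subunits gave the sharpest contrast between genes. C1qa was at 30.3 CPM in f/f and 8.92 in Nestin-Cre, at 32.7 and 42.2 in the Olig2-Cre pair, and at 31.2 and 43.3 in the Fto pair. C1qb was at 28.6 and 25.6 CPM in the Nestin-Cre pair, at 32.6 and 38.9 in the Olig2-Cre pair, and at 32.5 and 43.2 in the Fto pair. C1qc was at 33.1 and 4.23 CPM in the Nestin-Cre pair, at 32.3 and 39.3 in the Olig2-Cre pair, and at 34.9 and 39.8 in the Fto pair. All 3 subunits were above every control in the Olig2-Cre and Fto Tg libraries and below every control in the Nestin-Cre library, but by very different amounts in the latter.

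In the Nestin-Cre pair the log2 ratio was -1.76 (-1.95 to -1.58) for C1qa, -0.16 (-0.29 to -0.03) for C1qb and -2.96 (-3.21 to -2.71) for C1qc. C1qc was thus 7.79-fold lower, while C1qb was not called. In read counts, C1qb to C1qc was 6.05 (95% counting interval 5.08 to 7.20) in the Nestin-Cre library and between 0.864 and 1.08 in the other 5. C1qa to C1qc was 2.11 (1.73 to 2.57) against 0.895 to 1.09, and C1qa to C1qb was 0.349 (0.306 to 0.397) against 0.961 to 1.09. A ratio within a library does not depend on how the library is scaled, and none of the C1q genes shares exon bases with another gene. The longest transcripts of C1qa, C1qb and C1qc had GC contents of 59.5%, 57.4% and 57.5%, and the exon lengths were 1040, 1088 and 1931 bp. The same library gave 9.69 reads of P2ry12 (8.31 to 11.3) for each read of Tmem119, against 1.77 to 2.36 elsewhere, and the GC contents of these genes were 38.6% and 59.1%. The part of GC content and length in these ratios was not tested.

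**Figure D2:**
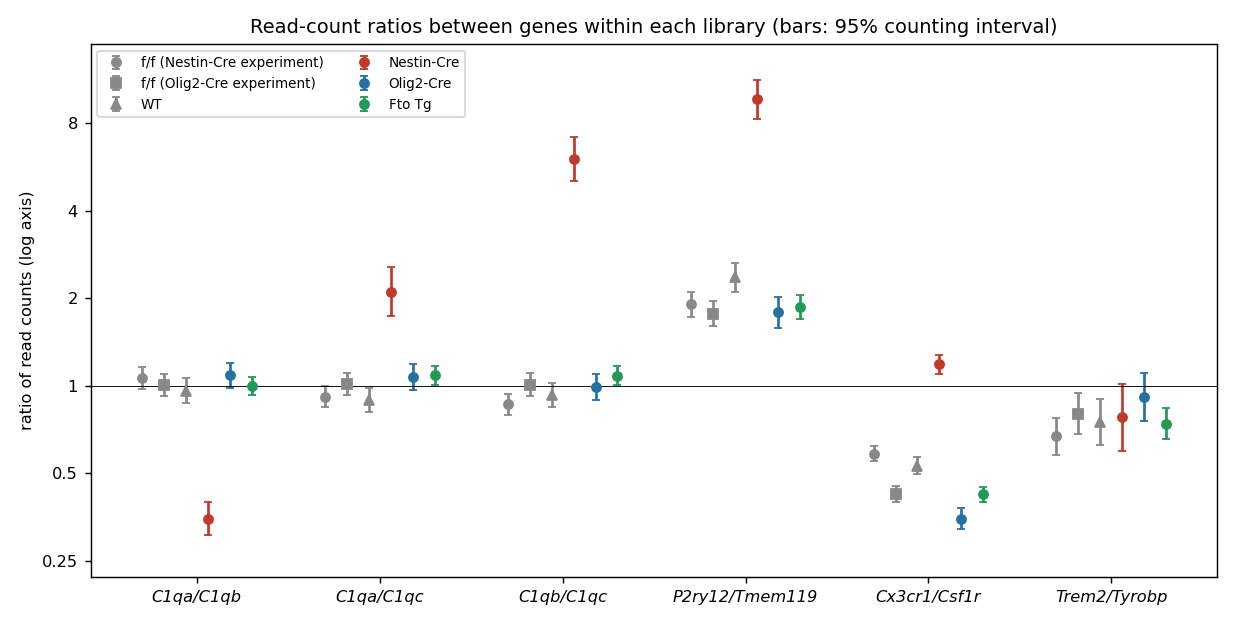
Ratio of read counts between gene pairs within each library (vertical axis, log scale), for 6 gene pairs (horizontal axis). Points are single libraries and bars are 95% counting intervals. Ratios among the C1q genes lie near 1 in 5 libraries, whereas C1qb/C1qc is at 6.05 and C1qa/C1qb at 0.349 in Nestin-Cre.

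Over the whole set, the Nestin-Cre pair had 1 member called higher and 6 lower, against 11.5% of 18170 genes higher and 53.4% lower. The median log2 ratio was -1.02 over the members and -0.72 over all genes tested. Relative to that shift of all genes, P2ry12 stood at 1.33, Cx3cr1 at 0.72, C1qb at 0.56, Aif1 at -0.10, Csf1r at -0.30, Trem2 at -0.88, Tmem119 at -1.01, C1qa at -1.05 and C1qc at -2.25 on the log2 scale. C1qc was below all but 4.32% of the genes tested and P2ry12 above 88.95% of them. With TMM scaling 3 members (Cx3cr1, P2ry12 and C1qb) were called higher and 5 lower, against 28.5% of genes higher and 30.1% lower. Over all genes the share of calls that were higher went from 17.8% to 48.7%. The SD of the 9 log2 ratios was 1.10, against 1.13 over the 13753 genes with at least 100 counts, so the members spread no more widely than other well-counted genes. Against the 3 controls, Nestin-Cre was above all of them for 1 member and below all for 7, where 17.5% and 70.9% of genes were.

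The Nestin-Cre library was also the 1 library with a low mean GC content, at 45.7%. After the ratios were adjusted for the trend of all genes with GC content and length, 3 members were called higher and 2 lower in place of 1 and 6, against 27.7% of genes higher and 27.8% lower. Tmem119 then came to -0.09, Csf1r to -0.06 and C1qa to 0.10, while C1qc at -1.44 and Trem2 at -0.85 stayed below 0 and P2ry12 at 0.89 above it. C1qb came to 1.46. The part of GC content in the unadjusted differences was not tested further.

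**Figure D3:**
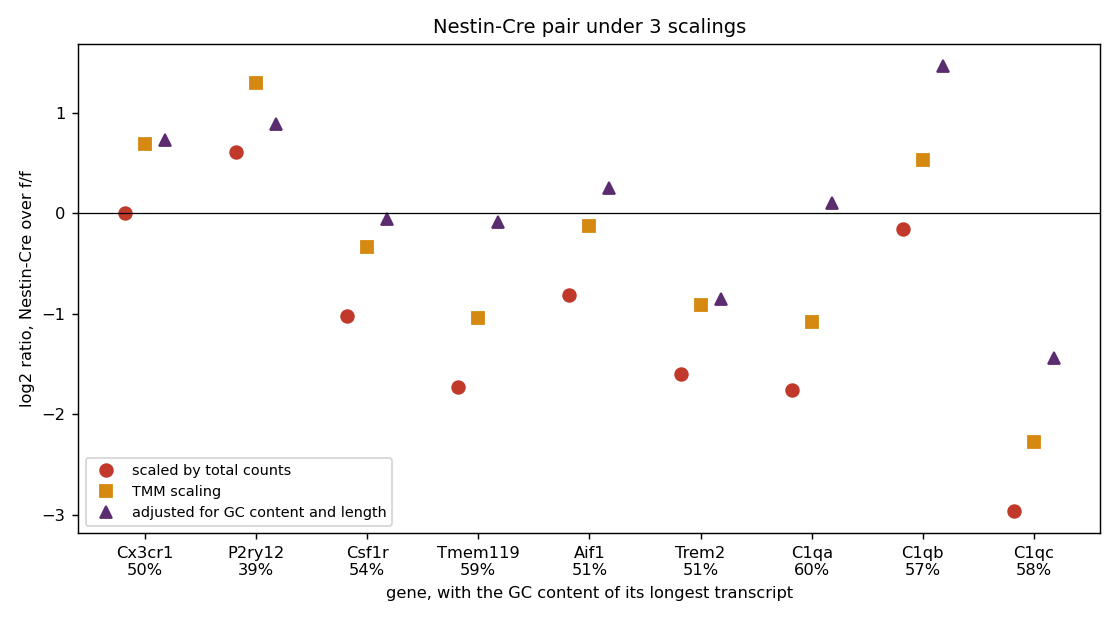
Log2 ratio of Nestin-Cre over f/f (vertical axis) for each gene (horizontal axis, with the GC content of its longest transcript), scaled by total counts, by TMM, or adjusted for GC content and length. Each point is 1 comparison of 2 libraries. C1qc and Trem2 are below 0 and P2ry12 above 0 under all 3, whereas C1qa, C1qb and Aif1 change sign.

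In the Olig2-Cre pair 2 members were called higher, C1qa with a log2 ratio of 0.37 (0.23 to 0.50) and C1qc with 0.28 (0.15 to 0.42), and 0 lower, against 4.95% of 17742 genes higher and 6.91% lower. The other subunit, C1qb, had 0.26 (0.12 to 0.40) and missed the FDR threshold at 0.00127, and the counting intervals of the 3 chains overlapped. Cx3cr1 at -0.15, P2ry12 at 0.02, Tmem119 at 0.00, Csf1r at 0.13, Trem2 at 0.33 and Aif1 at -0.05 were not called. The median was 0.13 over the members and 0.00 over all genes. The library was above all 3 controls for 7 members and below all for 1, where 29.2% and 30.1% of genes were. With DESeq2 size factors the higher share of all calls rose from 41.7% to 52.3%, and 3 members were called higher, against 6.3% of genes. Against the f/f control of Nestin-Cre instead, C1qc had 0.25 and was not called, whereas 5 other members were called higher and Cx3cr1 lower, against 8.98% of genes higher and 10.85% lower.

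In the Fto pair 3 members were called higher and 0 lower, against 6.97% of 18051 genes higher and 8.51% lower. They were Trem2 with a log2 ratio of 0.59 (0.35 to 0.83), C1qa with 0.47 (0.35 to 0.59) and C1qb with 0.41 (0.29 to 0.53). C1qc had 0.19 (0.07 to 0.31) and was not called, and neither were Cx3cr1 at -0.19, P2ry12 at -0.16, Tmem119 at 0.18, Csf1r at 0.14 and Aif1 at 0.00. The median was 0.18 over the members and 0.00 over all genes, whose SD was 0.32 among well-counted genes. The Fto Tg library was above all 3 controls for 4 members (C1qa, C1qb, C1qc and Trem2) and below all for 2, where 28.9% and 29.8% of genes were. With DESeq2 size factors the higher share of all calls rose from 45.0% to 55.8%, with the same number of members called, against 8.84% of genes higher. After adjustment for GC content and length, C1qa came to 0.16 and C1qb to 0.12, and neither was called. Trem2 stayed at 0.59 and was the 1 member called, against 5.1% of genes higher and 4.1% lower.

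Summed over C1qa, C1qb and C1qc, the level was 91.9, 97.6 and 98.6 CPM in the controls, 38.7 in Nestin-Cre, 120 in Olig2-Cre and 126 in Fto Tg. Summed over all 9 genes it was 283, 319 and 308 CPM in the controls and 186, 350 and 341 CPM in the same libraries. The higher sums of Olig2-Cre and Fto Tg thus lay outside the controls by less than the controls differed among themselves for the whole set, and by more for C1q. When 1 common spread of the controls, estimated over all genes, was put into an exact test, none of the members' higher calls remained in the Olig2-Cre or Fto pair. It was not the spread of each member. The members' own log2 SD over the controls was 0.05 for Trem2, 0.06 for C1qa and C1qc and 0.11 for C1qb. Each of these SDs rests on 3 libraries and includes counting error, so it measures a member's spread only roughly. For Trem2 the 95% counting interval of the log2 ratio between the f/f libraries was -0.16 to 0.32. Whether the common spread suited these genes was not tested. Over all genes the exact test, at an FDR below 0.05, made 58 calls with Olig2-Cre and 103 with Fto Tg. The read test, at an FDR below 0.001, had made 2104 and 2796.

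**Figure D4:**
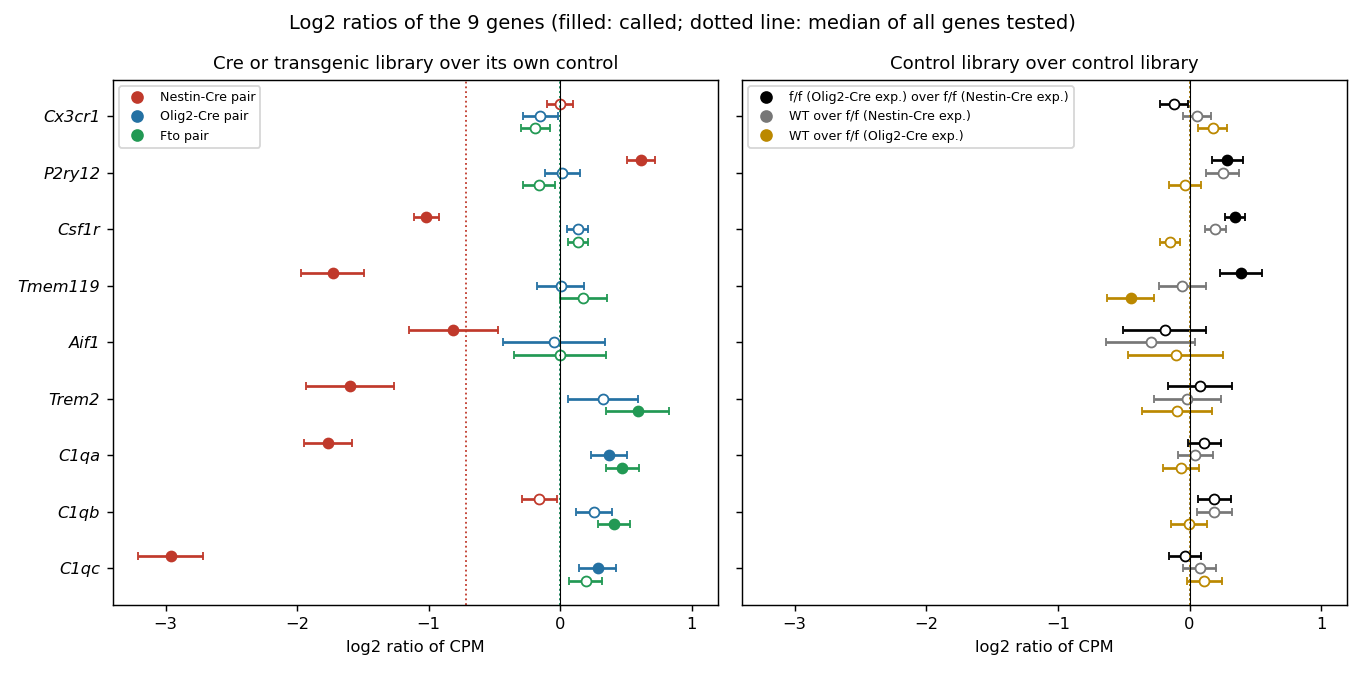
Log2 ratio of CPM (horizontal axes) for each gene (vertical axis) in the 3 pairs of altered and control libraries (left) and the 3 pairs of controls (right). Bars are 95% counting intervals, filled points were called and dotted lines are the medians of all genes tested. Ratios between controls stay within -0.45 and 0.39, and the Nestin-Cre pair spans from -2.96 to 0.61.

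The only contrast with more than 1 library an arm set both Cre libraries against both f/f libraries in edgeR's quasi-likelihood test. It called 0 of 9 members and 0 of 16921 genes (0%) at an adjusted p below 0.05, while 143 genes had an unadjusted p below 0.05. DESeq2's Wald test called 1 gene and edgeR with the experiment as a block 2, none of them a member. The members' log2 differences in edgeR ran from -0.50 for C1qc to 0.74 for P2ry12, with adjusted p between 0.955 and 0.984. These libraries were of different Cre drivers. In CPM, the Nestin-Cre and Olig2-Cre values of C1qa, C1qb, C1qc, Trem2, Csf1r and Tmem119 lay on opposite sides of the controls. For Tmem119 the Olig2-Cre library was barely above, at 22.51 CPM against 22.46 in its f/f control. This contrast used TMM, under which C1qb had positive log2 ratios in both pairs, 0.53 with Nestin-Cre and 0.24 with Olig2-Cre. Tmem119 had -1.04 and -0.01 under TMM. Without the Olig2-Cre library 6 members and 8480 of 17747 genes were called, and without the Nestin-Cre library 0 members were. In both cases the lone Cre library was assumed to vary like the f/f libraries.

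The ligands and partners of these receptors were called lower along with most other genes in the Nestin-Cre library. Of 12 listed partners and ligands, 11 could be tested there and 10 were called lower and 0 higher, with a median log2 ratio of -0.97. Of all genes tested, 53.4% were called lower and 11.5% higher. With TMM scaling 1 was called higher and 5 lower, against 28.5% and 30.1% of genes. When ratios were adjusted for GC content and length 4 were called in each direction, against 27.7% higher and 27.8% lower. The same shares of all genes apply to the Nestin-Cre counts of the lists that follow. Il34, a Csf1r ligand made mainly by neurons, went from 34.6 to 3.05 CPM with a log2 ratio of -3.50, whereas the other Csf1r ligand Csf1 went from 25.0 to 18.3 CPM with -0.45. Cx3cl1, the neuronal ligand of Cx3cr1, went from 522 to 142 CPM, a log2 ratio of -1.87, whereas Cx3cr1 itself had 0.00 (-0.10 to 0.10). Under TMM scaling the Csf1 ratio turned to 0.24 and those of Il34 and Cx3cl1 stayed below 0, at -2.81 and -1.19. The lipoprotein gene Apoe, whose product binds Trem2, was at 1341 and 1054 CPM in the Nestin-Cre pair with a ratio of -0.35, which also turned with TMM to 0.34. In the Olig2-Cre pair Apoe alone of the list was called, at 1587 against 1187 CPM and higher, and in the Fto pair Tyrobp alone, also higher.

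Among 26 complement genes outside C1q, 25 were found and 22 could be tested in the Nestin-Cre pair, with 1 called higher and 9 lower. The median log2 ratio was -0.40, and 0.28 with TMM scaling, where 5 were called higher and 4 lower. After adjustment 6 were called in each direction. C4b, which is cleaved after C1q binds, was at 22.3 CPM in f/f and 8.08 in Nestin-Cre, at 30.01 and 39.4 in the Olig2-Cre pair, and at 24.8 in WT and 28.0 in Fto Tg. It was called lower in the first and higher in the second, like C1qa and C1qc. The neuronal complement inhibitor Susd4 was at 118 and 45.1 CPM in the Nestin-Cre pair and was called lower. C3, the central component, was at no more than 1.83 CPM in any library and was not called. In the Fto pair the 1 gene called of 21 tested was Cd59a, an inhibitor of the membrane attack complex, at 11.03 CPM in WT and 16.1 in Fto Tg. Itgam, a chain of the C3 receptor, was at 19.6 and 25.3 CPM in the Nestin-Cre pair and was called higher.

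Of 34 other genes of homeostatic microglia, 6 were called higher and 16 lower in the Nestin-Cre pair, with a median log2 ratio of -0.36 that became 0.33 with TMM scaling. With TMM 14 were called higher and 6 lower, and after adjustment 13 and 5. The protease Ctss was at 35.5 and 28.8 CPM and was called lower, with a ratio of -0.30 that turned to 0.38. In the other direction, Sall1, a transcription factor of microglial identity that other brain cells can also express, went from 19.1 to 47.8 CPM with a ratio of 1.32. The lectin Siglech was at 13.02 and 25.6 CPM, and the lysosomal protein Cd68 at 5.86 and 13.2 CPM. The lowest ratio of the list was -3.31, for the leukotriene synthase gene Ltc4s, at 4.71 and 0.460 CPM. These last 4 genes were chosen after their values were seen.

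In the Olig2-Cre pair 1 of these 34 genes was called higher, Laptm5 with a log2 ratio of 0.31, and 1 lower, Tgfbr1 with -0.35. Of all genes, 4.95% were called higher and 6.91% lower. In the Fto pair 3 of the 34 were called higher and 1 lower, against 6.97% and 8.51% of all genes. The 2 most abundant of the called genes were Fcrls, at 20.8 CPM in WT and 26.0 in Fto Tg, and Selplg, at 18.5 and 24.5 CPM. The median was 0.06 in the Olig2-Cre pair and 0.20 in the Fto pair, against 0.24 between the f/f libraries, where 9 of 34 were called higher and 0 lower. Between the f/f libraries 6.11% of all genes were called higher and 7.01% lower. WT had a median of 0.11 against the f/f control of Nestin-Cre and -0.05 against that of Olig2-Cre.

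Genes of disease-associated microglia, a state that depends on Trem2, had 3 of 21 tested called higher and 12 lower in the Nestin-Cre pair with a median of -0.75, close to that of all genes. With TMM scaling 9 were called higher and 4 lower, and after adjustment 7 and 2. The 3 called higher without these were Lpl, a lipase, from 52.5 to 67.5 CPM, the tetraspanin Cd9 from 59.1 to 94.4, and Gpnmb from 2.31 to 6.53, named here after their values were seen. Levels of this list are those of bulk tissue, and which cells carried the transcripts was not tested. In the Olig2-Cre pair 3 of 19 were called higher and 0 lower, against 4.95% and 6.91% of all genes. The 3 included Apoe and the protease Ctsd (340 and 413 CPM). In the Fto pair 1 of 20 was called, and higher, against 6.97% of all genes higher and 8.51% lower. It was Ctsd, at 303 CPM in WT and 364 in Fto Tg. Of other genes of this state, Clec7a was at no more than 0.595 CPM in any library, Itgax at no more than 0.516 and Cst7 at no more than 0.282. Of 20 inflammatory genes, 1 was called higher and 6 lower of 14 tested in the Nestin-Cre pair, 1 higher of 15 in the Olig2-Cre pair, and 1 higher and 4 lower of 17 in the Fto pair. For the Nestin-Cre pair the counts were 3 higher and 1 lower with TMM scaling, and 2 and 1 after adjustment. The gene called higher in the Olig2-Cre and Fto pairs was Nfkbia, an inhibitor of NF-kB, at 38.8 and 60.8 CPM and at 24.5 and 39.4 CPM. The cytokine genes Il1b, Tnf and Il6 stayed at or below 0.373 CPM.

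**Figure D5:**
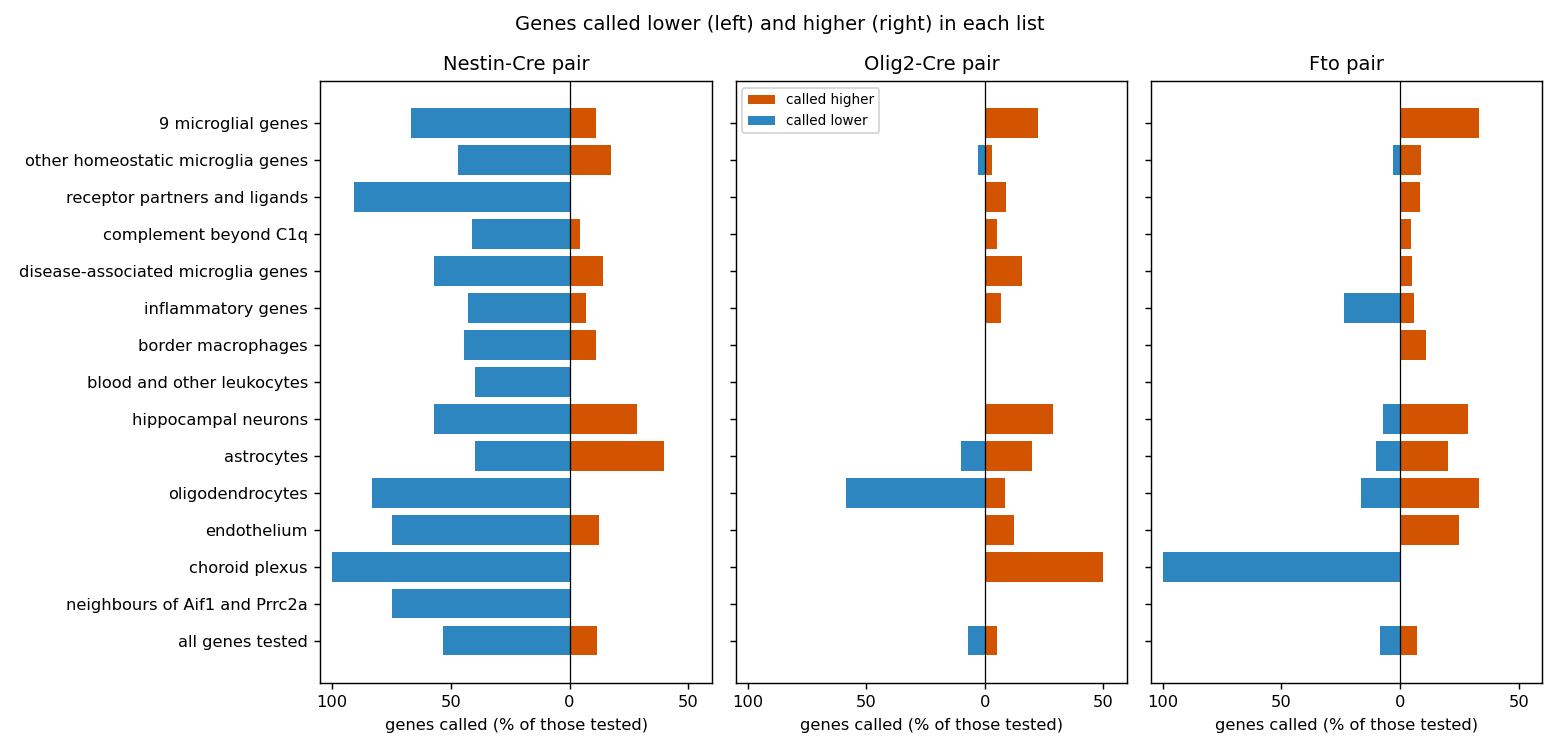
Share of tested genes called lower (left of 0) and higher (right of 0) in each list and over all genes tested, in percent (horizontal axes), for the 3 pairs, with libraries scaled by total counts. The lists hold 8 to 34 genes, so that 1 gene weighs several percent in the short ones. In the Nestin-Cre pair 8 of 8 choroid plexus genes and 10 of 11 partners and ligands are lower, against 53.4% of all genes.

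Other cells could carry some of these transcripts. Border macrophages, which share Cx3cr1, Csf1r and C1q with microglia, were followed by 10 genes, all above 0 in all libraries, which summed to 42.0 to 45.2 CPM in the controls, 26.4 in Nestin-Cre, 45.8 in Olig2-Cre and 43.8 in Fto Tg. In the Nestin-Cre pair 1 of 9 tested was called higher, Cd163, and 4 lower, including Stab1 from 21.1 to 6.70 CPM and Mrc1 from 8.57 to 6.10 CPM, the latter with a log2 ratio of -0.49 that turned to 0.20 with TMM. In the Olig2-Cre pair 0 of 9 were called, and in the Fto pair only Cbr2, which was higher. Blood and other leukocyte genes summed to 15.5 to 24.4 CPM in the controls, 6.90 in Nestin-Cre, 12.9 in Olig2-Cre and 26.3 in Fto Tg, and of 10 tested in the Nestin-Cre pair 4 were called lower, all of them hemoglobin genes whose near-identical copies can share reads. The T cell markers Cd3e and Cd3g were at or below 0.159 CPM.

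The 8 genes of choroid plexus, a neighbouring tissue, summed to 1671 to 2905 CPM in the controls, 281 in Nestin-Cre, 3453 in Olig2-Cre and 700 in Fto Tg. Genes of oligodendrocytes summed to 8744 to 10090 CPM in the controls, 6637 in Nestin-Cre, 7034 in Olig2-Cre and 11700 in Fto Tg. Astrocyte genes summed to 5430 to 5579 CPM in the controls, 5900, 5185 and 5026 CPM in the same 3 libraries, hippocampal neuron genes to 4343 to 4635 CPM and 5221, 4660 and 4476 CPM, and endothelial genes to 231 to 242 CPM and 178, 257 and 249.5 CPM. The part of any of these cells and tissues in the members' differences was not tested.

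Aif1 is the member closest to the targeted gene. It lies at chr17:35170991-35176068 on the minus strand, 6.09 kb from Prrc2a at chr17:35149076-35164897. Both arms of each Prrc2a pair were homozygous for the floxed allele, which Cre is meant to recombine in the cells where it acts. An effect of that recombination on nearby genes was not tested. Of the 11 genes listed around it, Prrc2a included, 6 of 8 tested were called lower and 0 higher in the Nestin-Cre pair and 0 in the Olig2-Cre pair, against the 53.4% of all genes called lower in the former. With TMM scaling 4 were called lower and 0 higher, and after adjustment 1 and 3. Prrc2a itself had a log2 ratio of -1.24 and its neighbour Bag6 -1.68, from 210 to 65.5 CPM, and after adjustment these came to 0.27 and -0.19. Aif1 at -0.81 was closer than either to the median of all genes before adjustment.

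The members did not share 1 profile over the 6 libraries. The distance of a gene was taken as the root-mean-square difference between its centred log2 CPM and the mean centred log2 CPM of the 9 members, over 14539 genes with a mean of at least 1 CPM. Csf1r was closest to its own set's mean at 0.0876, where 2.06% of other genes were closer, and C1qc was farthest at 0.710, where 86.9% of other genes were closer. Trem2 and Aif1 were at 0.274 and 0.273, C1qb at 0.297, Tmem119 at 0.302, C1qa at 0.326, Cx3cr1 at 0.509 and P2ry12 at 0.608. The 10 genes outside all lists with the most similar profile were Pttg1ip, Smg9, D2hgdh, Eef2, Spata2, Ssbp3, Eif1b, Gpn1, Rundc3a and Myg1, at distances of 0.0211 to 0.0394. Their log2 ratios were -1.14 to -0.96 in the Nestin-Cre pair, 0.07 to 0.20 in the Olig2-Cre pair and 0.08 to 0.28 in the Fto pair.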

How the data were processed

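The authors made whole-number read counts per Ensembl gene, which were deposited without normalization. Per the submitters' processing notes, reads were aligned to mm10 with TopHat2 2.0.9 and counted with HTSeq 0.6. The methods name another TopHat version, uniquely mapped reads, and union counting without strand, so that reads overlapping more than 1 gene, such as Csf1r and Hmgxb3, were not counted. The methods describe paired reads, and the labels allow single reads too. Symbols were found for 95.2% of identifiers. Exon lengths, GC content and coordinates came from GENCODE M21 (GRCm38, the assembly of mm10), which is newer than the annotation used for counting.

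Counts were divided by the library total (18616540 to 35482589) to give CPM, with Wilson 95% intervals. Each pair was tested over all genes with at least 10 counts by the formulas of DEGseq's MARS method, written anew in Python 3.11.15 (scipy 1.17.1, numpy 2.4.6, pandas 2.3.3), with 0.5 added to counts, an FDR below 0.001 and a fold change of at least 1.2, the study's thresholds. The same test was run between controls. Both Cre libraries were compared with both f/f libraries by edgeR 4.0.16 (quasi-likelihood test, TMM, filterByExpr, FDR 0.05, R 4.3.3), with DESeq2 1.42.0 as an alternative. Position against the controls used genes with at least 60 counts over the 6 libraries. Alternatives were TMM, DESeq2 size factors, leaving out mitochondrial genes, no filter, an exact test using the controls' dispersion, adjustment for GC content and length (genes with at least 100 counts set the trend), another control library and leaving out each library. The exact test used 1 common dispersion of the controls for all genes, an FDR below 0.05 and the same fold change. The code was tested on simulated data.

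The members and the 13 gene lists were chosen with earlier results of these data known. All members are named, with stated ligands, partners and complement genes, up to 2 of the most abundant called genes of each list and pair, and the 10 genes of most similar profile. Other named genes were chosen to show the range of a list. A few genes that this rule covers are not reported here.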

Additional observations from a re-analysis of the deposited data

Results flagged for a closer look

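In the Nestin-Cre and Olig2-Cre pairs 2 members were called in opposite directions. Of all genes tested, 53.4% were called lower in the Nestin-Cre pair and 4.95% higher in the Olig2-Cre pair. The share of genes with both calls was not determined, so the 2 members cannot be set against it. C1qa was called lower in the former and higher in the latter, with log2 ratios of -1.76 and 0.37, a difference of 2.13 between the pairs. C1qc was likewise called lower and higher, with ratios of -2.96 and 0.28, a difference of 3.25. Other members, such as Trem2 at -1.60 with Nestin-Cre and 0.33 with Olig2-Cre, also had ratios of opposite sign but were not called in both. The difference between the pairs was not tested, because each pair held 1 library a group. The Nestin-Cre library also differed from the others in mitochondrial share and GC content, at 26.2% and 45.7%. With ratios adjusted for GC content and length, C1qa came to 0.10 in both pairs, and C1qc to -1.44 with Nestin-Cre and 0.09 with Olig2-Cre. Both Olig2-Cre calls were lost then, and also in the exact test using the controls' dispersion.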

How the results depend on the processing

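In the Nestin-Cre pair the count of members called higher was 1 as reported, where 11.5% of genes were. It was 3 with TMM scaling (28.5% of genes), 3 with DESeq2 size factors (29.55%) and 2 without mitochondrial genes (18.45%). It was 0 in the exact test using the controls' dispersion (8.17%) and 3 when adjusted for GC content and length (27.7%). That adjustment left 2 of 6 called lower, where 27.8% of genes were. The log2 ratio of C1qb turned from -0.16 to 0.53 with TMM, 0.56 with DESeq2 size factors, 0.16 without mitochondrial genes and 1.46 after adjustment, which also turned C1qa to 0.10 and Aif1 to 0.25. In the Olig2-Cre pair, where 2 were called and both higher, the exact test and the adjustment each left 0, with 0.135% and 3.4% of genes called higher. The other f/f control gave 6, of which 5 were higher and 1 lower, against 8.98% and 10.85% of genes. In the Fto pair, where 3 were called and all higher, the exact test left 0 and the adjustment 1, with 0.127% and 5.14% of genes called higher. The adjustment turned the Fto ratios of Tmem119 to -0.0257 and C1qc to -0.0271, and the Olig2-Cre experiment's f/f library as control turned Tmem119 to -0.27 and Csf1r to -0.0121. Leaving out 1 library from the contrast of Cre and f/f libraries gave 0 to 6 members called, the 6 (Cx3cr1, P2ry12, Tmem119, C1qa, C1qc and Trem2) only without Olig2-Cre. Experiment as a replicate block gave 0 members called and 2 genes in all, and the block changed no member's call. Without the count filter, all 27 ratios of the 9 members in 3 pairs kept direction and call. Causes of these changes were not tested. Depth limits Aif1 and Trem2 most, with 86 to 431 counts a library.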
